A study of Mus musculus with 3 samples.

Results

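The Egr zinc finger factors, the Nr4a nuclear receptors and the Nab corepressors were followed as 8 genes, Egr1, Egr2, Egr3, Nr4a1, Nr4a2, Nr4a3, Nab1 and Nab2. They were taken by gene symbol, and all 8 of the 8 were found among the 44788 symbols of the deposited count table. The 3 libraries, the only group, came from splenic T lymphocytes of female BALB/c mice, aged 6 to 8 weeks, that had been isolated with beads against CD90.2 and kept with LZ-8 for 15 h. LZ-8 is an immunomodulatory protein from the fungus Ganoderma lucidum and a mitogen for T cells, and its dose is not given in the sources used here. All values below are therefore levels in LZ-8-treated cells and not responses to LZ-8, since untreated cells were not analysed here. The labels leave unsaid whether each replicate was its own mouse, culture or pool of animals, so p-values and SDs measure only the spread of these libraries, which may be technical.

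Egr1, Egr2 and Egr3 are immediate early transcription factors that T cells switch on through the MAP kinase and calcium branches of T cell receptor signalling, and they bind GC-rich sites with related zinc fingers. Egr2 and Egr3 are also known for restraining T cell activation and for their part in anergy, a state of reduced responsiveness. Nab1 and Nab2 bind Egr proteins and repress their activity, and Nab2 is itself a known Egr target, which makes it part of a negative feedback loop. Nr4a1 (Nur77), Nr4a2 (Nurr1) and Nr4a3 (Nor1) are orphan nuclear receptors that act without a known physiological ligand. They are likewise induced by antigen receptor signalling, and Nr4a1 is widely used as a reporter of it.

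The promoters of 6 of the 8 genes were in the RefSeq table of the C57BL/6J reference (GRCm38.p6), as windows of 300 bases from 250 before to 50 after an annotated start. Egr1 and Egr3 were not in it. The windows of Nr4a1, Nr4a3 and Nr4a2 are shown because all of them held several copies of TGACG, the core of the cAMP response element that CREB binds. Nab1 is shown for its Egr sites, and 1 of the 5 windows of Egr2 for its CArG box, the element bound by serum response factor. Capitals mark TGACG, the CArG box and the Egr site GCGNGGGCG, each on either strand, and the motifs were taken from known regulators of these genes after the windows had been seen.
Nr4a1 (GRCm38.p6, chr15:101266596-101266895, plus strand): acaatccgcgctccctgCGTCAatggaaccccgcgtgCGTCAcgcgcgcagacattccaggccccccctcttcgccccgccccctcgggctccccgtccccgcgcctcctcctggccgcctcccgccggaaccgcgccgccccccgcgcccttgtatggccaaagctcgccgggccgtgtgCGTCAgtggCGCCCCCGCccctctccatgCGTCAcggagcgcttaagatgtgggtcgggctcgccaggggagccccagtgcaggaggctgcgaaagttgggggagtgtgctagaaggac
Nr4a3 (GRCm38.p6, chr4:48045055-48045354, plus strand): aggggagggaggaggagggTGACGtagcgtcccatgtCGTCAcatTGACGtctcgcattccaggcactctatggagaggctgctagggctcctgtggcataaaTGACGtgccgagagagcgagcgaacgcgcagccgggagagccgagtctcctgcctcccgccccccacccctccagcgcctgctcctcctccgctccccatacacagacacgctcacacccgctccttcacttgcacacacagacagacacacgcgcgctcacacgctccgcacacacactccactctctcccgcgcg
Nr4a2 (GRCm38.p6, chr2:57123954-57124253, minus strand): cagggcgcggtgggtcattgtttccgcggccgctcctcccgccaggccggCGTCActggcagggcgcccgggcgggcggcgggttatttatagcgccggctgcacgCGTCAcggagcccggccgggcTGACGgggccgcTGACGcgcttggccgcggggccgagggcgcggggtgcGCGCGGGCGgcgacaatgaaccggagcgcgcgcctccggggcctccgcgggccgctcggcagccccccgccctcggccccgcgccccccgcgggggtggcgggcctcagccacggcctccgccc
Nab1 (GRCm38.p6, chr1:52500399-52500698, minus strand): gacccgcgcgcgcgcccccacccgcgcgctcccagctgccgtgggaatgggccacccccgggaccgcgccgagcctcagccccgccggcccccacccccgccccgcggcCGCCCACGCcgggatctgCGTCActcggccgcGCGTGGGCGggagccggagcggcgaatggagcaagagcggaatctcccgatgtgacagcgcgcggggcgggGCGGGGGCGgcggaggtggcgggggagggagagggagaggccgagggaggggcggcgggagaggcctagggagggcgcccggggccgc
Egr2 (GRCm38.p6, chr10:67537619-67537918, plus strand): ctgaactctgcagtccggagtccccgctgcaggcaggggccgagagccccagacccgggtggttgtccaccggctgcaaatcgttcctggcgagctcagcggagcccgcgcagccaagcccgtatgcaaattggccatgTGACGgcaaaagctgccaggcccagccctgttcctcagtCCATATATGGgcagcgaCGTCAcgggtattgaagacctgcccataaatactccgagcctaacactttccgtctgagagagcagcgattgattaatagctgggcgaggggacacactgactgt

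Each of the 3 Nr4a windows held 4 copies of TGACG, at offsets of -233, -213, -69 and -40 bases from the start in Nr4a1, of -231, -213, -205 and -147 in Nr4a3 and of -200, -144, -123 and -111 in Nr4a2. Among all 32851 promoter windows, 20.8% held at least 1 copy and 0.231% held at least 4. The Egr site occurred once in the Nr4a1 window (offset -60), once in the Nr4a2 window (-74) and 3 times in the Nab1 window (-141, -109 and -38), against 5.55% of all windows with at least 1 match and 0.195% with at least 3. The Nab2 window held none of the motifs searched. This window lies inside the GENCODE span of Nab2, so the sequence before the most upstream annotated start was not searched. The same holds for the window of Nr4a1. The windows of Nab1, with its 3 Egr sites, and of Nr4a3 lie in large part inside the spans of their genes. For these only some of the sequence before the most upstream start was searched. In Egr2 the CArG box lay at -72 in the window shown, with TGACG at -111 and -55. Of the other Egr2 windows, 2 largely overlap it and hold the same matches, 1 holds another CArG box and no TGACG, and the most upstream holds none of the motifs. A CArG box occurred in 1.63% of all windows, a share per window, while Egr2 had 5 windows. None of the members' windows held the full TGACGTCA (1.79% of all windows, each of which also counts for TGACG), the Nr4a monomer site AAAGGTCA (1.51%), the AP-1 site TGANTCA (7.81%) or a MEF2 site in its strict form, CTA and TAG around 4 bases of A or T (0.557%). Looser forms of the MEF2 site were not searched. A match is a run of letters, not a shown binding site.

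The libraries held 19041670, 12669690 and 14715992 counts (replicates 1, 2 and 3). Their content was that of T cells: all 10 T cell identity genes listed were above 100 CPM (counts per 1000000 of the library's total), and their sum ranged from 4053 to 4205 CPM. The 6 B cell genes summed to 16.7 to 18.5 CPM, the 6 monocyte and macrophage genes to 0 to 0.368 CPM, and the 4 neutrophil genes to 0.105 to 0.272 CPM. Csf1r, C1qa and Fcgr1 had no read in any library. The 4 dendritic cell genes summed to 9.72 to 11.8 CPM, nearly all of it Zbtb46 (9.49 ± 1.22 CPM), the 4 natural killer cell genes to 27.4 to 30.8 CPM, mostly Eomes and Klrk1, which activated CD8 T cells also express, and the 5 erythroid and platelet genes to 1.56 to 1.84 CPM. Other leukocytes also use Egr and Nr4a genes, and their part in the levels below was not tested. In bulk RNA, a level shared by many cells and a higher level in fewer cells cannot be told apart.

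All 8 members were expressed, 7 of them above 50 CPM. Together they took 777 ± 18.3 CPM (SD, n = 3), or 0.0777% of all counts. Their median was 75.8 CPM, against 26.9 CPM for the 13530 genes with a mean of at least 1 CPM. The most abundant members were Nr4a1 and Nr4a3, and the least abundant by far was Nr4a2.

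**Figure D1:**
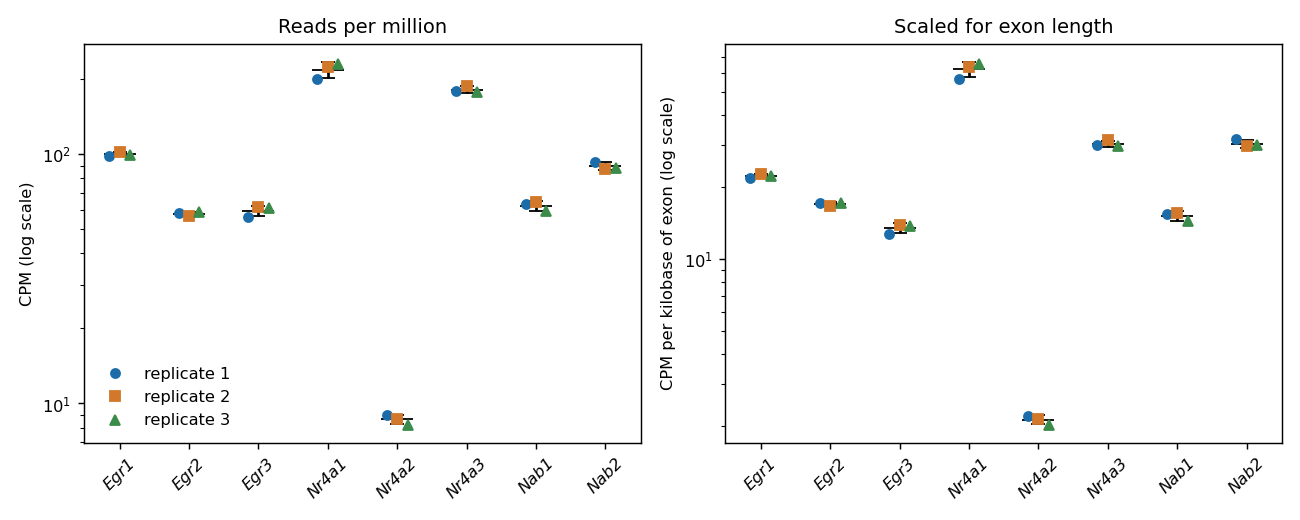
Level of each member in the 3 libraries, as CPM (left) and as CPM per kilobase of exon (right), both on log axes. Symbols are libraries, and the bar with whiskers is the mean with its SD. Nr4a1 stood highest on both scales at 218 CPM and 62.2 CPM per kilobase, and Nr4a2 lowest at 8.63 CPM and 2.13 CPM per kilobase.

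Among the Egr factors, Egr1 was the most abundant. Egr1 (ENSMUSG00000038418.7, GRCm38 chromosome 18, 34859823 to 34864984, plus strand) had 1867, 1291 and 1467 reads in replicates 1, 2 and 3, or 98.0, 102 and 99.7 CPM. The values are nearly level across the libraries, with a mean of 99.9 ± 1.93 CPM (SD, n = 3), above 81.0% of the genes of at least 1 CPM. Egr2 (ENSMUSG00000037868.15, chromosome 10, 67535475 to 67542188, plus strand), the family member most tied to anergy and to restraint of effector T cells, had 1106, 718 and 861 reads. These are 58.1, 56.7 and 58.5 CPM, a mean of 57.8 ± 0.962 CPM, with replicate 2 lowest by a narrow margin. Egr3 (ENSMUSG00000033730.4, chromosome 14, 70077203 to 70082614, plus strand), which overlaps with Egr2 in function, had 1068, 776 and 895 reads, or 56.1, 61.2 and 60.8 CPM. Its mean was 59.4 ± 2.86 CPM, with replicate 1 below the other two. Egr4, the fourth gene of the family and not a member here, had 4, 6 and 1 reads and a mean of 0.251 ± 0.206 CPM. It was thus close to the limit that a count of 0 allows, 0.158 to 0.237 CPM in these libraries. Such limits, like the intervals below, cover counting error only.

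Of the reads of Egr1, Egr2 and Egr3, Egr1 took 46.2, 46.4 and 45.5% in replicates 1, 2 and 3, with exact binomial 95% intervals of 44.7 to 47.8%, 44.5 to 48.2% and 43.8 to 47.3%. Egr2 took 26.6 ± 0.798% and Egr3 27.4 ± 0.802% (SD, n = 3). Reads also depend on transcript length, and the exon unions are 4484 bases for Egr1, 3398 for Egr2 and 4406 for Egr3. Per kilobase of exon the shares were 42.2%, 32.2% and 25.5% for Egr1, Egr2 and Egr3. Egr1 exceeded Egr2 in reads by a mean log2 ratio of 0.79 ± 0.05 and Egr3 by 0.75 ± 0.05, in 3 of 3 libraries each. Egr2 and Egr3 were hardly apart in reads: their log2 ratio was -0.04 ± 0.08, above 0 in 1 of 3 libraries. Per kilobase it was 0.34 ± 0.08, above 0 in 3 of 3, so the order of the pair depends on the scale. Reads that both genes could claim are few, since 14 of the 3448 distinct 31-base words of Egr2 transcripts also occur in Egr3, and Egr1 shares none with any other gene.

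The Nr4a receptors were the most abundant of the 3 families, through Nr4a1 and Nr4a3. Nr4a1 (ENSMUSG00000023034.7, chromosome 15, 101254269 to 101274795, plus strand) had 3807, 2843 and 3387 reads, or 200 CPM in replicate 1 and 224 and 230 CPM in replicates 2 and 3. Replicate 1 was the lowest. The mean of 218 ± 16.0 CPM (SD, n = 3) placed it above 93.1% of the genes of at least 1 CPM. Nr4a3 (ENSMUSG00000028341.9, chromosome 4, 48045153 to 48086447, plus strand), whose functions in T cells largely overlap those of Nr4a1, had 3413, 2388 and 2613 reads, or 179, 188 and 178 CPM. Its mean was 182 ± 5.88 CPM, and its highest library lay below the lowest library of Nr4a1. Nr4a2 (ENSMUSG00000026826.13, chromosome 2, 57106830 to 57124003, minus strand), best known for its role in dopamine neurons, had only 171, 110 and 121 reads. At 8.98, 8.68 and 8.22 CPM (mean 8.63 ± 0.382) it was above 28.5% of the genes of at least 1 CPM, and its libraries differed by less than their counting intervals.

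Nr4a1 took 51.5, 53.2 and 55.3% of the Nr4a reads in replicates 1, 2 and 3, with exact binomial 95% intervals of 50.4 to 52.7%, 51.9 to 54.6% and 54.1 to 56.6%. Nr4a3 took 44.5 ± 1.75% and Nr4a2 2.12 ± 0.176% (SD, n = 3). Scaled for exon unions of 3509, 5987 and 4059 bases, Nr4a1, Nr4a3 and Nr4a2 took 65.6%, 32.1% and 2.25%. Nr4a1 exceeded Nr4a2 25.2-fold in reads (log2 ratio 4.65 ± 0.17), and Nr4a3 exceeded it 21.0-fold (4.39 ± 0.07). The log2 ratio of Nr4a1 to Nr4a3 was 0.26 ± 0.11 in reads and 1.03 ± 0.11 per kilobase. Under 0.5% of the 31-base words of each Nr4a gene occurred in another gene's transcripts.

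Both Nab corepressors were present at levels like those of the Egr genes. Nab2 (ENSMUSG00000025402.12, chromosome 10, 127660918 to 127668568, minus strand) had 1779, 1103 and 1297 reads, or 93.4, 87.1 and 88.1 CPM, with replicate 1 highest. Its mean was 89.5 ± 3.41 CPM (SD, n = 3). Nab1 (ENSMUSG00000002881.14, chromosome 1, 52457294 to 52500679, minus strand) had 1204, 813 and 868 reads, or 63.2, 64.2 and 59.0 CPM, with replicate 3 lowest. Its mean was 62.1 ± 2.76 CPM. Nab2 took 59.0 ± 1.28% of the reads of the pair and 66.8% per kilobase, and the log2 ratio of Nab1 to Nab2 was -0.53 ± 0.08 in reads and -1.01 ± 0.08 per kilobase.

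The level of Nab2 is less certain than those of the other members. Of its 31-base words, 37.9% also occur, on either strand, in transcripts of other genes, most of them (965 of 1110) in Gm16229. Nab1 was the next highest member at 6.41% (267 words, 193 of them in Cog7). The words shared with Gm16229 are not a separate limit, since this antisense RNA in GENCODE overlaps Nab2 on the opposite strand. The overlap covers 1050 (35.7%) of the 2941 exonic bases of Nab2. Gm16229 has no row under this symbol in the deposited counts, so its level is not known here. Another 151 exonic bases overlap Nemp1 (28.1 ± 0.827 CPM, listed as Tmem194), and 40 overlap Stat6 (427 ± 6.33 CPM, SD, n = 3), the neighbour that meets Nab2 end to end. The use of strand in the counting is not stated, so reads from Nab2 and from its opposite strand cannot be told apart. None of the other 7 members overlapped an annotated gene.

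As families, the Nr4a genes summed to 409 ± 17.9 CPM, the Egr genes to 217 ± 4.17 CPM and the Nab genes to 152 ± 4.78 CPM (SD, n = 3). The reads of the Nab pair were 0.699 times those of the 3 Egr genes (log2 ratio -0.52 ± 0.07), and 0.864 times per kilobase. Those of the Nr4a genes were 1.88 times those of the Egr genes (0.91 ± 0.04), and 1.79 times per kilobase. All 9 ratios between members or families were set against 0 with an exact two-sided sign-flip permutation test over the libraries. In this exact test the ratio of Egr2 to Egr3 gave p = 0.5 (also 0.5 adjusted over the 9). The other 8 ratios gave an exact p = 0.25 (adjusted 0.281). With 3 libraries the test cannot go below 0.25, so it could call no ratio.

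Ordered by CPM per kilobase of exon, the members ran from Nr4a1 (62.2 ± 4.57) through Nab2 (30.4 ± 1.16), Nr4a3 (30.4 ± 0.982), Egr1 (22.3 ± 0.431), Egr2 (17.0 ± 0.283), Nab1 (15.2 ± 0.674) and Egr3 (13.5 ± 0.650) to Nr4a2 (2.13 ± 0.0941). Nab2 and Nr4a3 did not differ beyond their spread, since their ranges overlapped. The ranges of every other pair of neighbours were apart in the 3 libraries, though by little for Egr2 over Nab1 (1.12-fold) and Nab1 over Egr3 (1.12-fold). The widest steps were Nr4a1 over Nab2 (2.04-fold) and Egr3 over Nr4a2 (6.34-fold). These levels rest on the GENCODE exon unions, which may be longer than the transcripts these cells make.

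The replicates were next compared with each other, to ask which members differed between libraries by more than counting error. Nr4a1 did, and the other 7 were not called. The test was a likelihood-ratio test in edgeR that allows counting error only (dispersion 0), over the 13500 genes that reached 1 CPM in 2 or more libraries. In it, 1 of the 8 members (12.5%) varied at an adjusted p under 0.05, against 13.7% of all genes tested. The share was 26.1% among the 4707 tested genes of at least 50 CPM, the range that holds 7 of the members. Nr4a1 had a range of 0.21 log2 units between its lowest and highest library (adjusted p = 1.86e-08 by that test), against a median of 0.17 for all tested genes and 0.10 for those of at least 50 CPM. Its coefficient of variation of 7.36% was 4.21 times the 1.75% that counting alone gives at its depth.

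**Figure D2:**
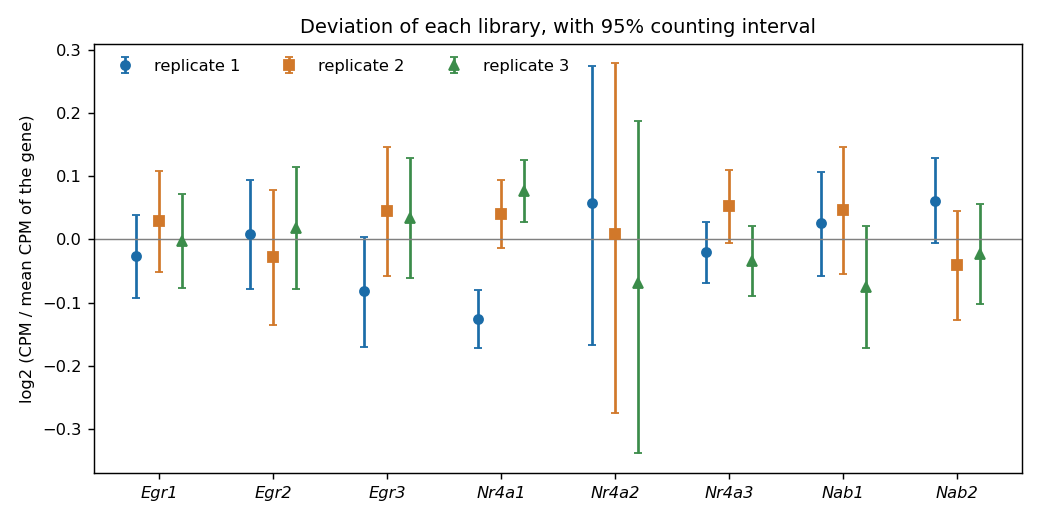
Deviation of each library from the gene's mean, as log2 of CPM over mean CPM, with exact 95% counting intervals as whiskers. The interval of Nr4a1 in replicate 1 lies apart from those in replicates 2 and 3, while the wide intervals of Nr4a2 come from 110 to 171 reads a library.

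Nr4a1 was 12.0% lower in replicate 1 (200 CPM) than the mean of replicates 2 and 3 (227 CPM), and the exact 95% interval of 194 to 206 CPM in replicate 1 lay below the 216 to 233 CPM of replicate 2 and the 222 to 238 CPM of replicate 3. Without replicate 1 the call was lost (adjusted p = 0.535 in edgeR's likelihood-ratio test, range 0.04 log2 units), and without replicate 2 or replicate 3 it was not (adjusted p = 6.44e-08 and 2e-04). The shares of all tested genes called without replicates 1, 2 and 3 in turn were 8.48%, 9.03% and 5.61%. Replicate 1 was the deepest library, had the highest level of the ribosomal RNA pseudogene Rn18s-rs5 (10918 CPM, against 9686 and 8858 in replicates 2 and 3), and had the lowest sum over the 10 T cell identity genes (4053 CPM, against 4072 and 4205 CPM). That sum was close to the sum of replicate 2. Of those 10 genes, 6 varied, against 26.1% of the tested genes of at least 50 CPM. Of the 6, 4 were lowest in replicate 1, among them Cd3e (393, 429 and 428 CPM), against 31.9% of all varying genes. The other 2 that varied, Lck (517, 515 and 536 CPM) and Cd2 (249.5, 249.1 and 269 CPM), were lowest in replicate 2. Of the genes that did not vary, none was lowest in replicate 1 and 2 were highest there. The part of these in the difference was not tested. Of the not called members, the range was 0.05 to 0.13 log2 units, narrowest for Egr2 and widest for Egr3 (adjusted p = 0.867 and 0.234), and for these a difference was not detectable at this depth. The coefficient of variation of Egr1 (1.93%), Egr2 (1.67%) and Nr4a2 (4.43%) was below the 2.58%, 3.39% and 8.78% of counting alone.

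Known inputs of these genes were expressed, with only Mef2c near the 1 CPM line. Of 14 upstream regulators, 14 had at least 1 CPM and 8 at least 100 CPM, with a median of 106 CPM. Among the highest were Hdac7 (784 ± 16.6 CPM), a class IIa deacetylase that represses Nr4a1 in thymocytes, Nfatc1 (310 ± 3.81 CPM) and Mef2d (233 ± 11.2 CPM), a MADS-box factor that drives Nr4a1 in response to calcium. Srf, which binds the CArG box, stood at 108 ± 1.49 CPM, and Creb1, which binds the TGACG core, at 109 ± 6.60 CPM. The lowest were Elk1 (23.3 ± 2.68 CPM), a partner of Srf, and Mef2c (1.19 ± 0.496 CPM), which had 0.630 CPM in replicate 1. In this list 6 of 14 varied between the libraries, against 13.7% of all tested genes and 26.1% of those of at least 50 CPM. Crtc2, a coactivator of CREB, stood at 89.9, 103 and 115 CPM in replicates 1, 2 and 3, Creb1 at 102, 115 and 111 CPM and Mef2d at 220, 238 and 241 CPM. All of these, like Elk1 and Hdac7, were lowest in replicate 1, as was Nr4a1, while Elk4 (209, 192 and 187 CPM) was highest there. Among all varying genes 31.9% were lowest in replicate 1. Any link between these regulators and the level of Nr4a1 was not tested.

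**Figure D3:**
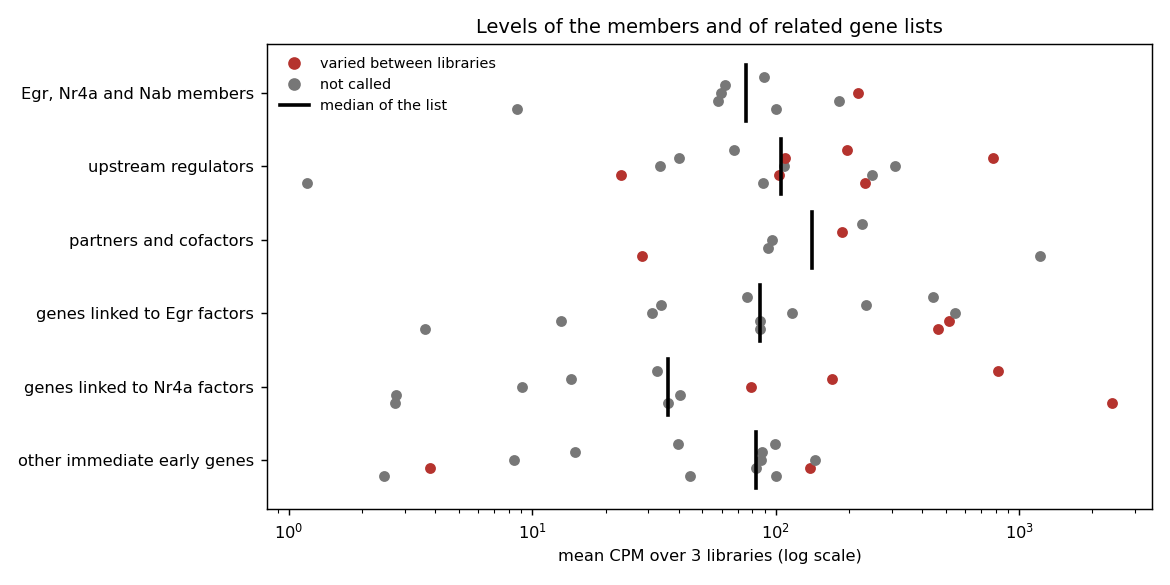
Mean CPM over the 3 libraries (log axis) of the 8 members and of 5 lists of related genes, 1 point a gene. Red points varied between the libraries, and black lines are medians. The members' median of 75.8 CPM lies below those of the upstream regulators (106 CPM) and the partners and cofactors (142 CPM). Per kilobase of exon, which is not drawn, the members' median (19.6) lies below that of the upstream regulators (21.4) but above that of the partners and cofactors (16.4).

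Among 6 partners and cofactors, Chd4, the NuRD helicase through which Nab2 represses, was the most abundant at 1214 ± 21.8 CPM. It was followed by the acetyltransferases Ep300 (226 ± 7.50 CPM) and Crebbp (187 ± 13.6 CPM) and by Rcor1 (96.5 ± 2.97 CPM), a corepressor that works with Nr4a2. Of the retinoid X receptors, with which Nr4a1 and Nr4a2 can pair, Rxrb had 93.2 ± 2.80 CPM and Rxra 28.4 ± 4.48 CPM, or 23.5 and 5.19 CPM per kilobase. Rxra varied, at 23.7, 28.7 and 32.7 CPM in replicates 1, 2 and 3, and was again lowest in replicate 1. Crebbp varied with replicate 1 highest (200, 187 and 173 CPM).

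Genes that earlier work ties to Egr or Nr4a factors in T cells covered a wide range. All 13 of the Egr-linked list had at least 1 CPM and 6 at least 100 CPM, with a median of 86.6 CPM. The diacylglycerol kinases Dgka (544 ± 6.75 CPM) and Dgkz (463 ± 10.8 CPM) and the ubiquitin ligase Cblb (441 ± 9.15 CPM), which dampen receptor signalling, were among the highest, with the IL-2 receptor chain Il2rb (515 ± 25.5 CPM). The lowest were Crtam (13.2 ± 1.80 CPM) and the death ligand Fasl (3.63 ± 0.562 CPM). Il2rb and Dgkz varied between the libraries. All 11 of the Nr4a-linked list had at least 1 CPM and 3 at least 100 CPM, with a median of 35.9 CPM. Irf4, a factor of effector differentiation, led at 2410 ± 101 CPM, followed by Il2ra (816 ± 19.2 CPM), the regulatory T cell factor Foxp3 (170 ± 8.17 CPM) and Ikzf2 (79.3 ± 8.15 CPM), and these 4 varied. Tox2 (2.76 ± 0.556 CPM) and Havcr2 (2.73 ± 0.108 CPM), genes of exhausted T cells, were lowest. These are levels only, and no link between a factor and a target was measured.

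Other immediate early genes spanned 2.47 to 145 CPM (median 83.2 CPM over 13 genes), and none reached Nr4a1 or Nr4a3 in CPM. The highest in reads were the phosphatase gene Dusp2 (145 ± 3.23 CPM), Junb (139 ± 7.95 CPM), Klf6 (101 ± 2.60 CPM) and Ier2 (99.0 ± 2.58 CPM). Per kilobase, Dusp2 (72.2 ± 1.61) stood above Nr4a1 (62.2 ± 4.57), and Ier2 (65.1) and Junb (60.3) were close to Nr4a1. All of these were above Nr4a3 (30.4) and Egr1 (22.3), and they were not the only listed genes to be so. This scale rests on exon unions. With its longest transcript as length, Nr4a1 stood at 85.5 CPM per kilobase, and no such value is given for the listed genes. Fos, the classic partner of Jun in AP-1, was far lower at 8.41 ± 1.02 CPM (3.58 CPM per kilobase), and Fosb and Ier3 were lowest at 3.81 ± 1.41 and 2.47 ± 0.788 CPM. Junb and Fosb varied. Fosb stood at 2.42, 3.79 and 5.23 CPM in replicates 1, 2 and 3, lowest in replicate 1, and Junb at 147, 137 and 132 CPM, highest there. Over the lists of related genes, 16 of 57 tested genes varied (28.1%). This compares with 13.7% of all tested genes and 26.1% of those of at least 50 CPM. The lists hold genes on both sides of 50 CPM, so neither share is matched to them in level. Replicate 1 was lowest in 10 of the 16 and highest in 4. Among all 1847 varying genes it was lowest in 590 (31.9%) and highest in 520 (28.2%). The lists were chosen with earlier results known, and whether their genes moved with Nr4a1 was not tested.

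The Nr4a genes were last placed in their own superfamily, the 49 mouse nuclear receptor genes, a list added after the members' values had been seen. Of these, 24 had at least 1 CPM, 15 had no read in any library, and 4 had at least 100 CPM. Nr4a1 and Nr4a3 ranked 1 and 2 by CPM, ahead of Nr1h2 (LXR beta; 165 ± 10.4 CPM) and Nr2c2 (139 ± 5.74 CPM), and Nr4a2 ranked 16. Per kilobase of exon, Nr4a1 kept rank 1 (62.2), Nr1h2 came next (49.3) and Nr4a3 was at rank 3 (30.4), followed by Rxrb (23.5). The glucocorticoid receptor gene Nr3c1 was at 87.5 ± 0.568 CPM, and 11.4 CPM per kilobase.

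**Figure D4:**
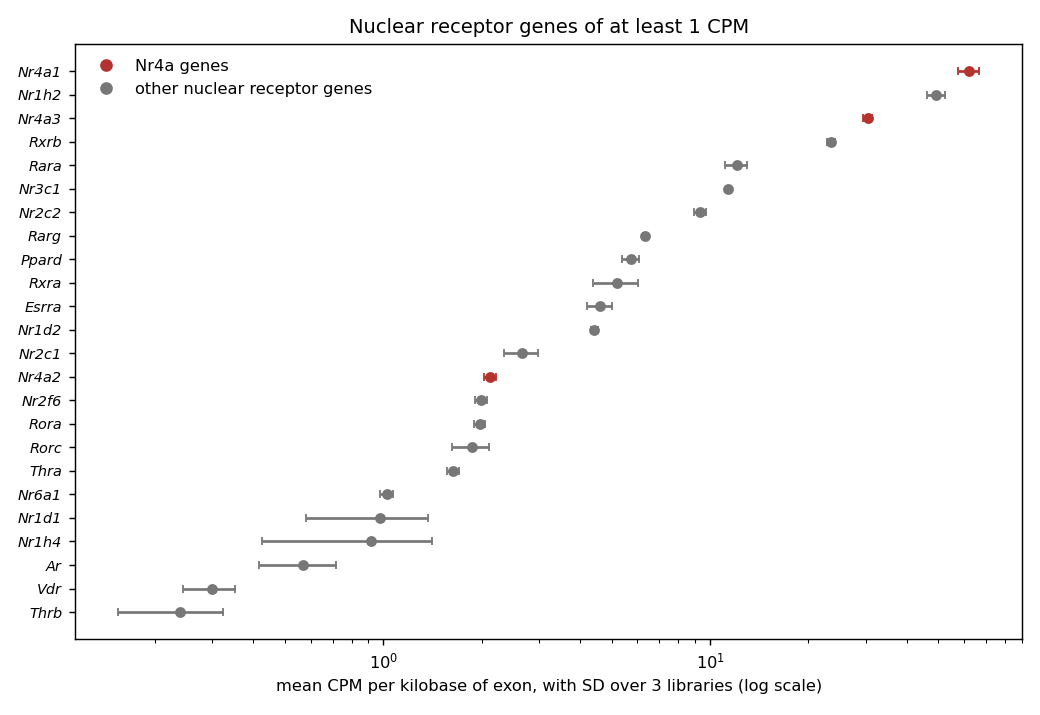
Mean CPM per kilobase of exon (log axis) of the 24 nuclear receptor genes with at least 1 CPM, with the SD over 3 libraries as whiskers. Nr4a1 and Nr4a3 (red) are at ranks 1 and 3, and Nr4a2 at rank 14 with 2.13 CPM per kilobase.

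For each member the gene closest in log2(CPM + 1) over the 3 libraries was also found, by Euclidean distance among the 13500 tested genes. For Nr4a1 it was the pseudogene Gm3608 (200, 218 and 226 CPM; distance 0.0524), with 10 genes within a distance of 0.1. Egr1 was closest to Afg3l1 (0.0159), Egr2 to Brms1 (0.0177), Egr3 to Chmp3 (0.0182), Nr4a3 to Atp11a (0.0218), Nab1 to Senp5 (0.0171) and Nab2 to Trmt2a (0.0244). Nr4a2 was closest to 2310015A10Rik (0.0419). For Egr1, 105 genes lay within 0.1, so over 3 libraries such closeness is mainly a like level.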

How the data were processed

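The table the authors deposited holds unnormalized counts (whole numbers with unequal column totals) for 3 libraries, made with an Ion Proton RNA-seq kit per the labels' protocols. Reads were placed on mm10, per the submitters' processing notes, and the aligner, counting tool, annotation and strand setting were not given in the sources used here. No further sample column was present. The members, gene lists and tests were chosen with earlier results of these data known.

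CPM was computed from the column totals, as mean and SD over libraries, and per kilobase of the exon union in GENCODE vM21 (GRCm38, the assembly mm10 denotes). Intervals are exact (Clopper-Pearson, 95%). Sharing is the share of a gene's 31-base words found, on either strand, in transcripts of other genes. Differences between libraries were tested with edgeR 4.0.16 (TMM factors, a likelihood-ratio test with dispersion 0, and Benjamini-Hochberg adjustment over every gene that reached 1 CPM in 2 or more libraries), which compares libraries, not conditions. The test was checked on simulated counts with planted changes and counting error only, as the test itself assumes. That check does not show how the test performs on these libraries. With 1 group the quasi-likelihood test does not apply. Ratios used 0.5 added to each count. Named were all members, Egr4, up to 4 highest and 2 lowest genes of each list, those that varied, and each member's closest gene. Srf and Creb1 were added for their motifs, Fos, Rxrb, Csf1r, C1qa, Fcgr1 and the nuclear receptors after their values were seen. Some listed genes are not reported here by name. Adgre1 and Nemp1 were found under older symbols. R 4.3.3, DESeq2 1.42.0 (size factors as an alternative), Python 3.11.15, numpy 2.4.6, pandas 2.3.3, scipy 1.17.1 and matplotlib 3.10.9 were used.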

Additional observations from a re-analysis of the deposited data

How the results depend on the processing

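No paired analysis was possible because all 3 libraries are 1 group. With DESeq2 size factors, unscaled totals or either other expression filter, 1 member, Nr4a1, varied between the libraries, and 1668 to 1882 genes did, against 1847. With a library left out, 0 to 1 members and 742 to 1193 genes varied. It was 0 members without replicate 1, and fewer libraries enter these tests. Without mitochondrial genes and annotated pseudogenes in the totals, all levels were higher by construction: 115 CPM for Egr1, 66.6 for Egr2, 68.4 for Egr3, 251 for Nr4a1, 9.94 for Nr4a2, 209 for Nr4a3, 71.6 for Nab1 and 103 for Nab2. The order per kilobase was the same with the longest transcript as length. Nab2 and Nr4a3 changed places without replicate 1 or 3. Only 2 of 8 members, Nr4a1 and Nr4a2, kept their place with no length scaling. Of the 9 log2 ratios, that of Egr2 to Egr3 reversed to 0.34 per kilobase and no other did under any setting. Shares moved per kilobase to 42.2% for Egr1, 32.2% for Egr2, 25.5% for Egr3, 65.6% for Nr4a1, 32.1% for Nr4a3 and 66.8% for Nab2. List medians per kilobase were 21.4 (upstream regulators), 16.4 (partners and cofactors), 24.3 (Egr-linked), 6.83 (Nr4a-linked) and 22.9 (immediate early), against 19.6 for the members. The members' median was thus below that of the partners and cofactors in CPM and above it per kilobase. Depth limits Nr4a2 most, with 402 reads in all.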
